A study of Homo sapiens with 11 samples.

Results

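The 9 genes described here are TAGLN, CNN1, CALD1, ACTA2, MYL9, TPM1 and TPM2, of the contractile and actin cytoskeleton, and CTGF and CYR61, which encode secreted proteins. They were chosen by name, and with earlier results of these data known, as genes that respond to the transcription factor SRF or to the coactivator YAP and that differed between uCCNE1 and pCCNE1 shRNA. All 9 were found among the 23287 genes of the deposited tables. All 9 had a mean of at least 1 RPKM (reads scaled by transcript length and library size) over the shRNA libraries, the filter that 12116 genes passed.

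The libraries came from human embryonic stem cells of the established lines H1 and H7. In 9 libraries the cells had been infected by lentivirus with uCCNE1 shRNA, pCCNE1 shRNA or a control shRNA and were collected at day 5. Each shRNA was used in H7 cells in 5iLA medium, H1 cells in t2iGo medium (both media are labelled naive) and H1 cells in the primed state, with 1 library per shRNA and culture. A further 2 libraries were untreated H7 cells, in 5iLA medium and in the primed state. Cyclin E1, encoded by CCNE1, drives entry into S phase, and per the series title pCCNE1 is a splice form of it found in primates. The labels do not say which transcripts the uCCNE1 shRNA targets and give a single name per shRNA, so a target and the hairpin used against it cannot be told apart. No group has a replicate library. Values of one culture are therefore given library by library, and tests used cultures or shRNAs in place of replicates.

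SRF switches on cytoskeletal genes when actin filaments assemble and release its coactivators MRTF-A and MRTF-B, which bind SRF at CArG boxes in DNA. YAP and its relative TAZ enter the nucleus when the Hippo kinases are quiet or when cells are under tension, and act through the DNA-binding TEAD factors. Both programs read the tension of the actin cytoskeleton, and many of their target genes are abundant in smooth muscle and fibroblasts but are also expressed by other adherent cells.

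Markers of mature smooth muscle were low but not all absent. The 10 genes of a list of more restricted smooth muscle markers summed to 4.605 to 9.13 RPKM in the shRNA libraries, to 15.2 RPKM in untreated 5iLA H7 and to 3.54 RPKM in untreated primed H7. MYH11, the smooth muscle myosin heavy chain, stayed between 0.0882 and 0.222 RPKM in all 11 libraries, and MYOCD, the muscle coactivator of SRF, between 0.0758 and 0.575 RPKM. Between 0 and 5 of the 10 genes reached 1 RPKM in a library. ACTG2, the enteric smooth muscle actin, was the highest of them, at 0.304 to 5.07 RPKM with shRNA and 11.5 RPKM in untreated 5iLA H7, and the smoothelin gene SMTN reached 4.22 RPKM and the desmin gene DES 2.05 RPKM in primed H1. The 9 genes other than CTGF and CYR61 are therefore taken as actin cytoskeleton genes, not as markers of smooth muscle.

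Several facts of the libraries touch the values that follow. CCNE1, read as a whole gene, was 5.27 RPKM with uCCNE1, 8.38 with pCCNE1 and 14.1 with control shRNA in 5iLA H7. In t2iGo H1 it was 5.38 RPKM with uCCNE1, 5.25 with pCCNE1 and 9.65 with control shRNA. In primed H1 it was 6.75 RPKM with uCCNE1, 10.5 with pCCNE1 and 11.95 with control shRNA, so a gene-level value below the control was seen with both shRNAs in every culture. The libraries labelled t2iGo lacked markers of the naive state: the 8 naive genes summed to 2.38 to 3.07 RPKM there, against 470 to 833 RPKM in 5iLA H7 and 3.35 to 4.61 RPKM in primed H1. Their 8 primed markers summed to 313 to 361 RPKM, against 1640 to 1917 RPKM in primed H1. Short non-coding RNAs took 13.1% to 16.7% of summed RPKM in t2iGo H1 and 16.2% to 27.5% in 5iLA H7, but 0.218% to 0.521% in primed H1, whose labels also follow another naming scheme. Estimated depth was 6.38 to 14.1 M reads in t2iGo H1, 11.2 to 16.8 in 5iLA H7, 18.8 to 23.4 in primed H1, 25.1 in untreated 5iLA H7 and 13.3 in untreated primed H7.

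Among the 9 genes, TAGLN and MYL9 stood highest with uCCNE1 shRNA relative to pCCNE1 shRNA in primed H1, at 3.61 and 3.60 times the pCCNE1 level, followed by TPM1 at 2.06 times and TPM2 at 1.97 times. ACTA2 stood the other way, at 0.422 times. In 5iLA H7 the ratio was 3.69 for TAGLN, 2.21 for CTGF and 2.09 for TPM2, and in t2iGo H1 it lay between 0.493 and 1.18 for all 9 genes. These differences chose the genes, so they are given as a description with no test. The plot of RPKM by library shows the values behind them.

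**Figure D1:**
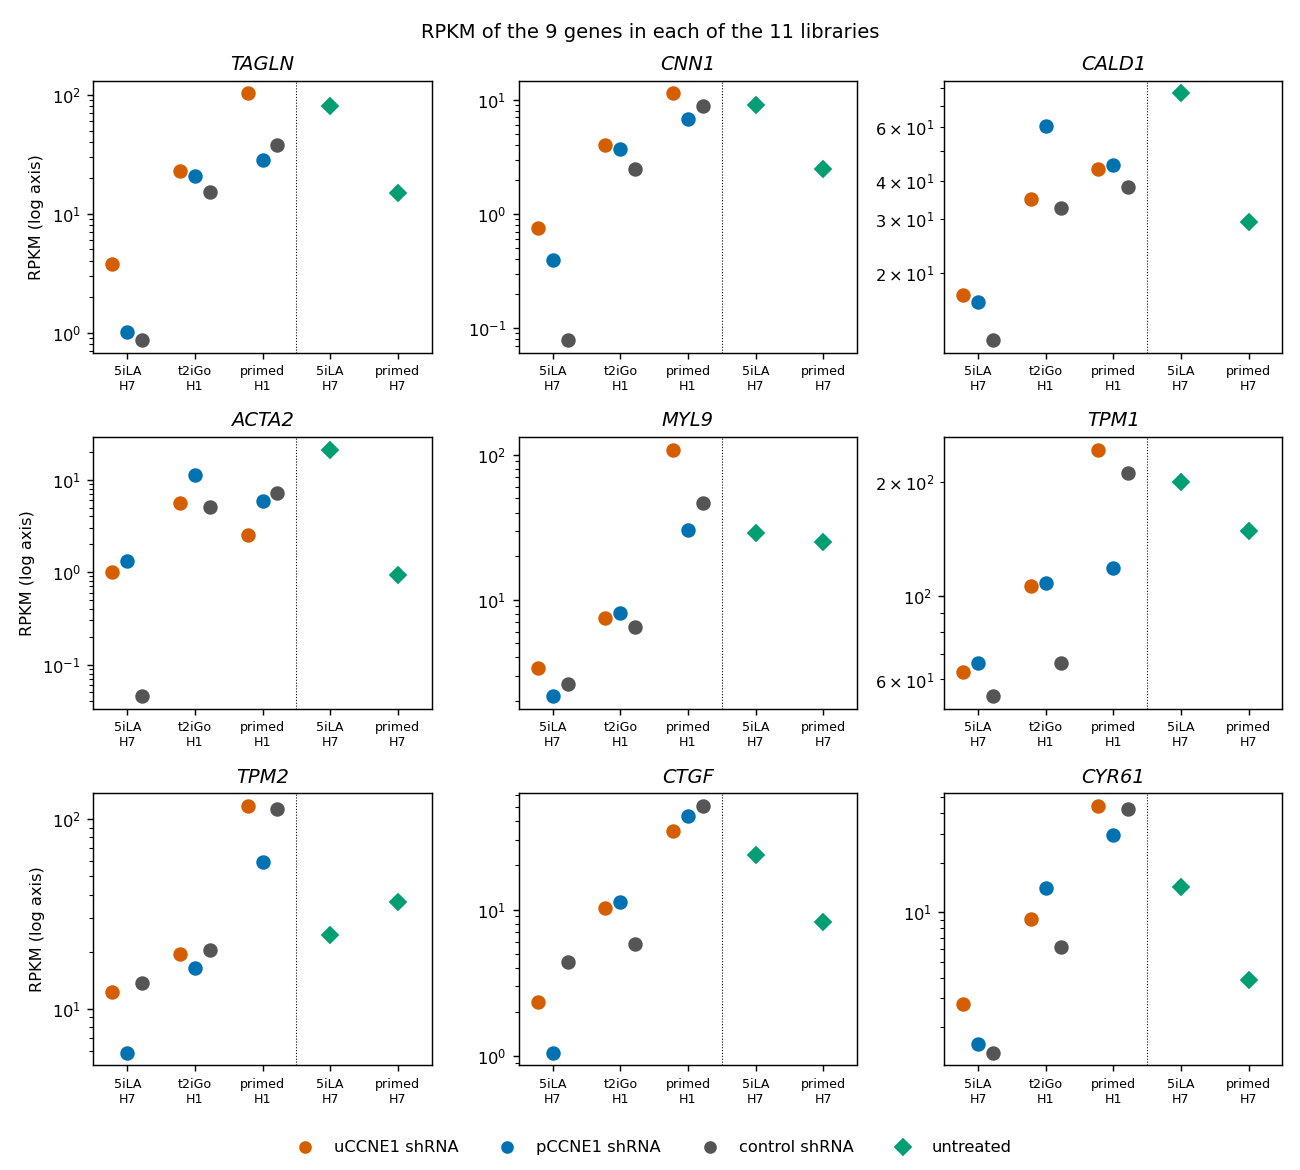
RPKM of each of the 9 genes (log axis, a separate range per panel) in the 9 shRNA libraries, grouped by culture, and, right of the dotted line, in the 2 untreated H7 libraries; each point is 1 library. TAGLN and MYL9 are highest with uCCNE1 shRNA in primed H1 (103 and 109 RPKM), and the points of 5iLA H7 with shRNA lie lowest in most panels.

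TAGLN encodes transgelin (SM22), a small protein that binds and bundles actin filaments. In 5iLA H7 it was 3.76 RPKM with uCCNE1, 1.02 with pCCNE1 and 0.862 with control shRNA. In t2iGo H1 it was 23.0 RPKM with uCCNE1, 20.7 with pCCNE1 and 15.1 with control shRNA, and in primed H1 it was 103 RPKM with uCCNE1, 28.5 with pCCNE1 and 37.9 with control shRNA. TAGLN was thus highest with uCCNE1 in all 3 cultures, while pCCNE1 lay above the control in 5iLA H7 and t2iGo H1 and below it in primed H1. Averaged over the cultures, the uCCNE1 minus pCCNE1 difference in log2(RPKM + 1) was 1.06. The 5iLA values rest on about 39, 12 and 13 estimated reads with uCCNE1, pCCNE1 and control shRNA. Their 95% exact Poisson intervals were 2.67 to 5.14 RPKM with uCCNE1, 0.526 to 1.78 with pCCNE1 and 0.459 to 1.47 with control shRNA, which covers counting error in single libraries only. In t2iGo H1 the intervals of TAGLN with uCCNE1 and pCCNE1 overlapped, at 19.9 to 26.3 and 17.2 to 24.8 RPKM. TAGLN overlaps PCSK7 on chromosome 11, whose level in primed H1 was 14.2 RPKM with uCCNE1, 8.17 with pCCNE1 and 13.3 with control shRNA.

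MYL9 encodes the regulatory light chain of smooth muscle and non-muscle myosin II, the motor that pulls on actin filaments. Levels in 5iLA H7 were 3.38 RPKM with uCCNE1, 2.15 with pCCNE1 and 2.61 with control shRNA. Levels in t2iGo H1 were 7.43 RPKM with uCCNE1, 8.04 with pCCNE1 and 6.46 with control shRNA, and those in primed H1 were 109 RPKM with uCCNE1, 30.2 with pCCNE1 and 46.9 with control shRNA. The high uCCNE1 value of MYL9 was seen in primed H1 alone, and the other 2 cultures spread over less than 1 log2 unit. CNN1 encodes calponin, which binds actin and slows the myosin motor. CNN1 was 0.756 RPKM with uCCNE1, 0.396 with pCCNE1 and 0.0784 with control shRNA in 5iLA H7. It was 4.04 RPKM with uCCNE1, 3.70 with pCCNE1 and 2.47 with control shRNA in t2iGo H1, and 11.4 RPKM with uCCNE1, 6.73 with pCCNE1 and 8.87 with control shRNA in primed H1. CNN1 followed the order of TAGLN in every culture, at a lower level. The 95% exact Poisson intervals of CNN1 with uCCNE1 and pCCNE1 overlapped in 5iLA H7, at 0.413 to 1.27 and 0.181 to 0.751 RPKM. They overlapped in t2iGo H1 as well, at 3.11 to 5.16 RPKM with uCCNE1 and 2.63 to 5.06 with pCCNE1. Its control value in 5iLA H7 rests on about 2 estimated reads (95% exact Poisson interval 0.00949 to 0.283 RPKM).

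The 2 tropomyosin genes differed from TAGLN and MYL9 in where the difference lay. Tropomyosins are coiled-coil proteins that run along the actin filament and set which partners can bind it. TPM1 was 62.8 RPKM with uCCNE1, 66.5 with pCCNE1 and 54.1 with control shRNA in 5iLA H7. It was 106 RPKM with uCCNE1, 108 with pCCNE1 and 66.5 with control shRNA in t2iGo H1, and 244 RPKM with uCCNE1, 118 with pCCNE1 and 212 with control shRNA in primed H1. In primed H1 the uCCNE1 library was close to the control for TPM1 (1.15 times) and the pCCNE1 library lay at 0.558 times the control. TPM2 was 12.3 RPKM with uCCNE1, 5.88 with pCCNE1 and 13.7 with control shRNA in 5iLA H7. It was 19.5 RPKM with uCCNE1, 16.5 with pCCNE1 and 20.5 with control shRNA in t2iGo H1, and 118 RPKM with uCCNE1, 59.5 with pCCNE1 and 113 with control shRNA in primed H1. For TPM2 the pCCNE1 library was the lowest in all 3 cultures, at 0.428, 0.804 and 0.526 times the control in 5iLA H7, t2iGo H1 and primed H1, while the uCCNE1 library lay between 0.893 and 1.04 times the control.

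CALD1 and ACTA2 did not follow the pattern of TAGLN. CALD1 encodes caldesmon, which links actin, myosin and tropomyosin. CALD1 was 17.0 RPKM with uCCNE1, 16.1 with pCCNE1 and 12.1 with control shRNA in 5iLA H7. It was 34.9 RPKM with uCCNE1, 60.4 with pCCNE1 and 32.5 with control shRNA in t2iGo H1, and 43.8 RPKM with uCCNE1, 45.0 with pCCNE1 and 38.1 with control shRNA in primed H1. Its largest departure was the high pCCNE1 value in t2iGo H1. ACTA2 encodes smooth muscle alpha-actin, the actin of contractile smooth muscle and of myofibroblasts. ACTA2 was 1.01 RPKM with uCCNE1, 1.31 with pCCNE1 and 0.0453 with control shRNA in 5iLA H7. It was 5.53 RPKM with uCCNE1, 11.2 with pCCNE1 and 5.01 with control shRNA in t2iGo H1, and 2.499 RPKM with uCCNE1, 5.92 with pCCNE1 and 7.09 with control shRNA in primed H1. The uCCNE1 library had less ACTA2 than the pCCNE1 library in all 3 cultures. In 5iLA H7 these values rest on about 15 estimated reads with uCCNE1 and 23 with pCCNE1. Their 95% exact Poisson intervals overlapped there, at 0.564 to 1.66 RPKM with uCCNE1 and 0.833 to 1.97 with pCCNE1. The control value in 5iLA H7 stands for about 1 estimated read (95% exact Poisson interval 0.00115 to 0.252 RPKM), so no fold is given against it. On chromosome 10 ACTA2 overlaps FAS and the antisense gene ACTA2-AS1, and its coding sequence is nearly the same as that of the other muscle actins, so reads could be shared between them.

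CTGF and CYR61, now also named CCN2 and CCN1, encode secreted matricellular proteins and are widely used readouts of YAP and TEAD activity. CTGF was 2.34 RPKM with uCCNE1, 1.06 with pCCNE1 and 4.404 with control shRNA in 5iLA H7. It was 10.2 RPKM with uCCNE1, 11.3 with pCCNE1 and 5.85 with control shRNA in t2iGo H1, and 34.1 RPKM with uCCNE1, 43.4 with pCCNE1 and 51.0 with control shRNA in primed H1. Both CCNE1 shRNAs were below the control for CTGF in 5iLA H7 and primed H1 and above it in t2iGo H1. CYR61 was 2.78 RPKM with uCCNE1, 1.58 with pCCNE1 and 1.41 with control shRNA in 5iLA H7. It was 9.12 RPKM with uCCNE1, 14.0 with pCCNE1 and 6.17 with control shRNA in t2iGo H1, and 44.4 RPKM with uCCNE1, 29.3 with pCCNE1 and 42.5 with control shRNA in primed H1. The uCCNE1 library was the higher of the CCNE1 pair for CYR61 in 5iLA H7 and primed H1, and the lower in t2iGo H1.

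The DNA just before the start sites of these genes was searched for the short sequences that SRF and TEAD factors bind. Binding itself was not measured. RefSeq (build GRCh38.p14) gave 11 promoters for 6 of the 9 genes, each covering 250 bases before to 50 bases after the start. TAGLN, MYL9 and CYR61 had no entry in the table used. The search on both strands covered the TEAD core GGAATG, whose reverse complement is CATTCC. The CArG box, named for its run of adenine and thymine between cytosines and guanines, was searched as well. The TEAD core was present in 4 of the 11 promoters, against 14.0% of all 35116 promoters in the table. No promoter of the 9 genes held an exact CArG box, which 1.29% of all promoters held, and 2 of the 11 held a CArG box with 1 letter off, against 6.94% of all. The CTGF promoter held 3 copies of GGAATG, starting 169, 104 and 95 bases before the start, and 0.128% of all promoters held at least 3. The ACTA2 promoter held 1 copy, 183 bases before the start, and a pair of 1-letter-off CArG boxes, 121 and 71 bases before it. The CALD1 promoters held the core 194 and 42 bases before their starts. Matches did not overlap one another. A match in these letters is a description and does not show binding. The 250 bases before the start are printed for the 4 promoters with a TEAD core, 5′ to 3′ on the strand of the gene, with TEAD cores and 1-letter-off CArG boxes in capitals.
CTGF, chr6:131951373-131951622, minus strand: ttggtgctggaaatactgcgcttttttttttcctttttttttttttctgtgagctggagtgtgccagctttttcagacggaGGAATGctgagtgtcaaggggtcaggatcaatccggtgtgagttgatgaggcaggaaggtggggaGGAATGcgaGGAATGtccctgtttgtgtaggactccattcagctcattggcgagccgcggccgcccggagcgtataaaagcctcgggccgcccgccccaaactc
ACTA2, chr10:88952774-88953023, minus strand: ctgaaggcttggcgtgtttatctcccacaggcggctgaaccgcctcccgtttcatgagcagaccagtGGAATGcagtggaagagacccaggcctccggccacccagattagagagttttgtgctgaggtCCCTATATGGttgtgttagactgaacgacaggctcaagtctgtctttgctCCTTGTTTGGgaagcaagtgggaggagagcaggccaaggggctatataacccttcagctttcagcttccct
CALD1, chr7:134779384-134779633, plus strand: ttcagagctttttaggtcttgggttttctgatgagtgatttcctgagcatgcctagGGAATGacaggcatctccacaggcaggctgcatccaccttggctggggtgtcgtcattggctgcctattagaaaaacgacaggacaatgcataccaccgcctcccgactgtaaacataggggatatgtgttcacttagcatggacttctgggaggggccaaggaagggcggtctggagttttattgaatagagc
CALD1, chr7:134745217-134745466, plus strand: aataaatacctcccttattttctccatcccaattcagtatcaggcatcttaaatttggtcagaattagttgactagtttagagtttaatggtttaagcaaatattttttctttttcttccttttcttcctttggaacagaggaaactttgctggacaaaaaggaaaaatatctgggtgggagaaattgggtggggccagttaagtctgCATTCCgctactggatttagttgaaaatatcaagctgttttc

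Taken over the 9 genes, the median uCCNE1 minus pCCNE1 difference in log2(RPKM + 1) was 0.68 in primed H1 and 0.47 in 5iLA H7 but -0.10 in t2iGo H1, against medians over all 12116 genes of -0.02, -0.02 and 0.11 in the same order of cultures. At least 1 log2 unit higher with uCCNE1 were 3 of the 9 genes in primed H1 (TAGLN, MYL9 and TPM1; 1.34% of all genes), 1 in 5iLA H7 (TAGLN; 0.685% of all genes) and 0 in t2iGo H1 (0.924% of all genes). TPM1 lay just past that bound in primed H1, at 1.04, and TPM2 just short of it, at 0.97. In the fit over all cultures, 0 of the 12116 genes passed an adjusted p of 0.05 for uCCNE1 minus pCCNE1 (0% of genes tested; limma was the tool run), and 495 had an unadjusted p under 0.05. The same fit called 0 genes for uCCNE1 minus control and 0 for pCCNE1 minus control, with 1236 and 1792 genes at an unadjusted p under 0.05. The comparisons share libraries, so the 9 genes are set side by side in them without a test. For uCCNE1 minus control the median of the 9 genes was 0.36 on the log2 scale, against -0.14 for all genes. For pCCNE1 minus control it was 0.05, against -0.15 for all genes. By culture, the pCCNE1 minus control median was 0.12 in 5iLA H7, 0.69 in t2iGo H1 and -0.40 in primed H1, so the pCCNE1 library was above the control for 8 of 9 genes in t2iGo H1 and below it for 8 of 9 in primed H1. The medians of all genes were -0.30, -0.11 and 0.01 in the same order of cultures, with 36.4% of all genes above the control in t2iGo H1 and 48.4% below it in primed H1.

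**Figure D2:**
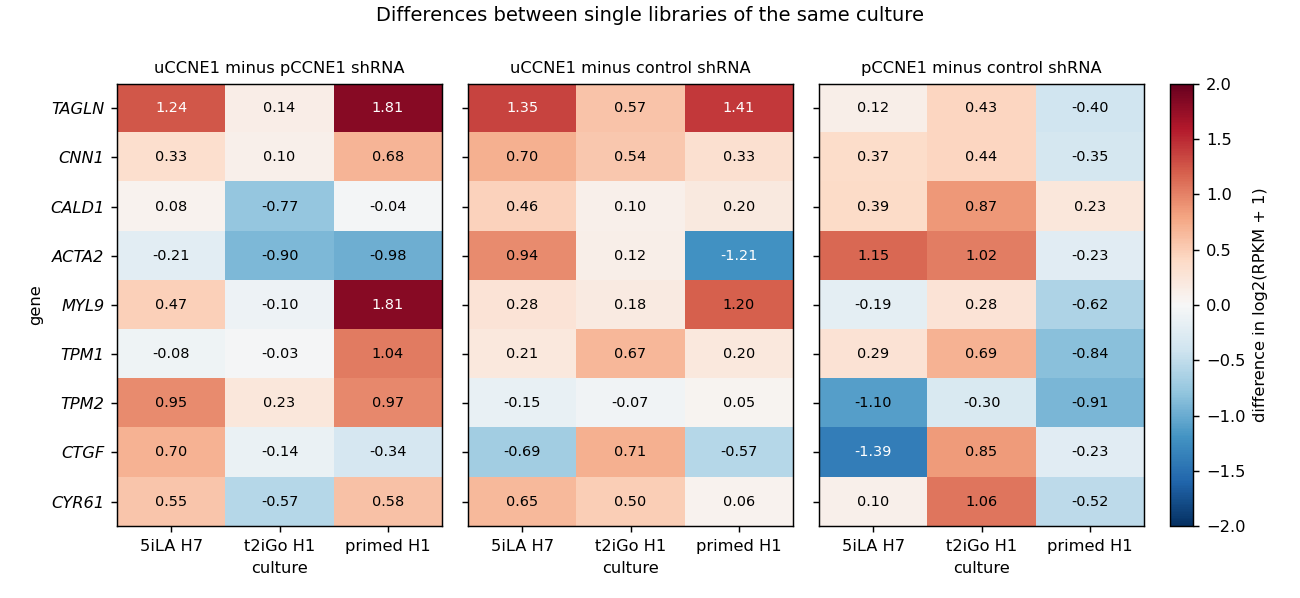
Differences in log2(RPKM + 1) between 2 single libraries of the same culture for the 9 genes (rows) in 5iLA H7, t2iGo H1 and primed H1 (columns); red is higher in the first-named shRNA, blue lower. For uCCNE1 minus pCCNE1, TAGLN reads 1.24, 0.14 and 1.81 and ACTA2 is below 0 in all 3 cultures; for pCCNE1 minus control, t2iGo H1 and primed H1 differ in sign for 7 of the 9 genes.

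The genes varied together only in part. Over the 9 shRNA libraries, after the mean of each culture was taken off, TAGLN correlated with MYL9 and with CNN1 at r = 0.88 each, but with ACTA2 at r = -0.24 and with CTGF at r = -0.12. These r values describe 9 libraries that share cultures and carry no test. The genes whose pattern was most like the mean of the 9, out of 10941 candidates, were TIMP2 (r = 0.98), CTSL2 (r = 0.94), C9orf116 (r = 0.94), KLHL23 (r = 0.92) and FGF2 (r = 0.92). TIMP2, an inhibitor of matrix metalloproteinases, was 19.2 RPKM with uCCNE1, 13.7 with pCCNE1 and 17.2 with control shRNA in primed H1.

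Other genes of the same programs were read from lists. The 26 cytoskeletal targets of SRF and MRTF outside the 9 were higher with uCCNE1 than with pCCNE1 for 21 of 26 on average over cultures, against 54.3% of all genes, with a median of 0.11 on the log2 scale and 0 past the test. In primed H1 alone 20 of 26 were higher, against 46.8% of all genes, with a median of 0.33, and 3 were at least 1 log2 unit higher. Those 3 were the muscle actins ACTA1, ACTC1 and ACTG2. ACTA1, the actin of skeletal muscle, was 11.6 RPKM with uCCNE1, 0.534 with pCCNE1 and 1.81 with control shRNA in primed H1. ACTA1 passed the filter on mean RPKM only through that uCCNE1 value, so its place in these counts was set by the value they describe. ACTC1, the actin of heart muscle, was 25.3 RPKM with uCCNE1, 5.60 with pCCNE1 and 7.67 with control shRNA there. ACTG2 was 4.38 RPKM with uCCNE1, 1.19 with pCCNE1 and 0.509 with control shRNA there. In t2iGo H1 it went the other way, at 1.13 RPKM with uCCNE1, 3.53 with pCCNE1 and 0.304 with control shRNA, and in 5iLA H7 it was 4.69 RPKM with uCCNE1, 5.07 with pCCNE1 and 1.82 with control shRNA. The 3 muscle actins were therefore high in the primed uCCNE1 library, the library in which ACTA2 was lowest of its culture. FLNA, the filamin that crosslinks actin, was 29.4 RPKM with uCCNE1, 23.8 with pCCNE1 and 37.0 with control shRNA in 5iLA H7, and lowest with pCCNE1 in the other 2 cultures as well, at 14.9 RPKM in t2iGo H1 and 63.7 RPKM in primed H1. The 18 tested YAP and TEAD targets did not lean the same way: 7 of 18 were higher with uCCNE1 than with pCCNE1, with a median of -0.14 and 0 past the test. Of the immediate early genes that SRF drives with TCF factors, 1 of 6 was higher (median -0.15). Of the Hippo components 4 of 17 were higher (median -0.08), and of the TGF-beta signalling genes 3 of 12 (median -0.18). No gene of these lists passed the test.

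**Figure D3:**
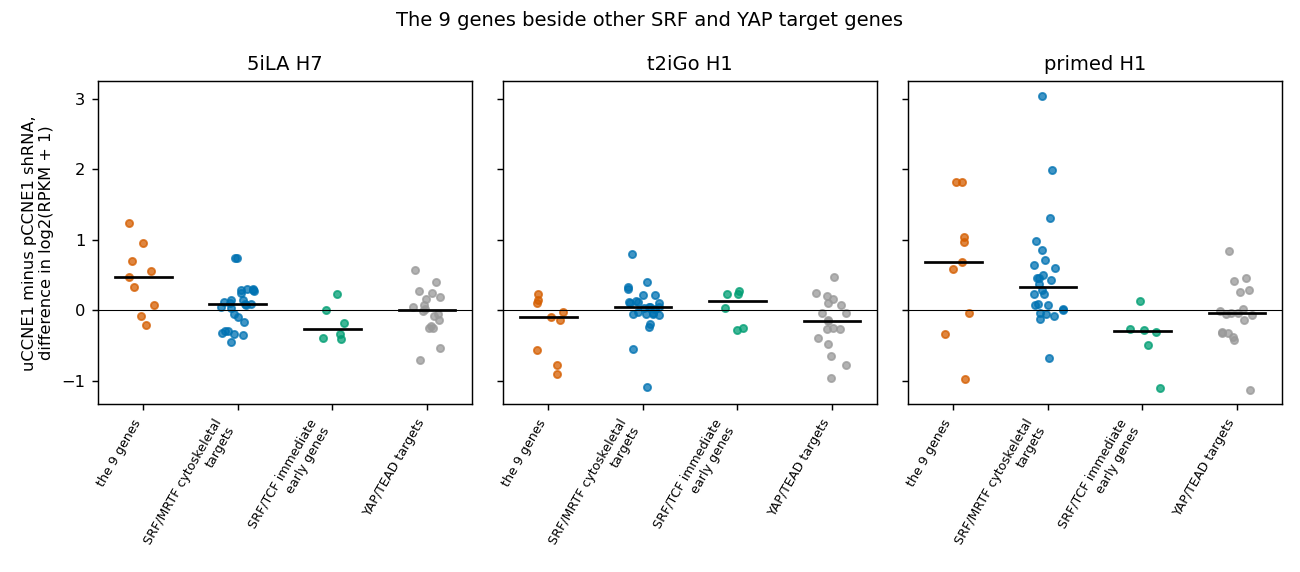
Difference in log2(RPKM + 1) between the uCCNE1 and the pCCNE1 library of each culture for the 9 genes and for 3 lists of other SRF and YAP targets; each point is a gene and each bar the list's median. In primed H1 the median is 0.68 for the 9 genes and 0.33 for the SRF/MRTF cytoskeletal targets, and below 0 for both other lists.

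Markers of other cells moved beside some of these values. A list of 14 fibroblast genes summed to 17.6 RPKM with uCCNE1, 14.4 with pCCNE1 and 4.41 with control shRNA in 5iLA H7, with TCF21 at 0 with all 3 shRNAs. Most of that sum was the collagen gene COL1A2, at 10.96 RPKM with uCCNE1, 7.49 with pCCNE1 and 2.77 with control shRNA, and COL3A1, another collagen gene, was 2.60 RPKM with uCCNE1, 2.52 with pCCNE1 and 0.269 with control shRNA. In 5iLA H7, 8 of the 10 tested genes of the list were above the control with uCCNE1 and 8 of 10 with pCCNE1, against 20.4% and 23.1% of all genes. COL1A2 had the order of TAGLN and CNN1 there. The list summed to 507 RPKM with uCCNE1, 547 with pCCNE1 and 441 with control shRNA in t2iGo H1, and to 348 RPKM with uCCNE1, 459 with pCCNE1 and 357 with control shRNA in primed H1. VIM made up most of the t2iGo H1 sums, at 346 RPKM with uCCNE1, 292 with pCCNE1 and 340 with control shRNA. Most of the primed H1 sums was VIM and THY1, which is also on the list of primed markers. VIM was 170 RPKM with uCCNE1, 190 with pCCNE1 and 172 with control shRNA in primed H1. THY1 was 123 RPKM with uCCNE1, 195 with pCCNE1 and 94.5 with control shRNA there. In t2iGo H1 COL3A1 was 86.9 RPKM with uCCNE1, 137 with pCCNE1 and 47.3 with control shRNA, and the matrix gene LUM 32.7 RPKM with uCCNE1, 71.5 with pCCNE1 and 13.9 with control shRNA. That order, pCCNE1 over uCCNE1 over control, was also the order of CALD1, ACTA2, MYL9, TPM1, CTGF and CYR61 in t2iGo H1. The list was mixed there, since 4 of its 10 tested genes, VIM, THY1, S100A4 and PDGFRB, were below the control with pCCNE1. Of all genes 62.7% were below the control with pCCNE1 in t2iGo H1. Genes of the pluripotent core ran the other way in t2iGo H1, where 6 of 7 were below the control with pCCNE1, against the same 62.7% of all genes. Those 6 were lowest with pCCNE1 and highest with control shRNA. NANOG was 8.21 RPKM with uCCNE1, 4.29 with pCCNE1 and 22.9 with control shRNA, and POU5F1 18.2 RPKM with uCCNE1, 13.6 with pCCNE1 and 34.6 with control shRNA. The pCCNE1 minus control median of the 7 genes was -1.05 on the log2 scale, against -0.11 for all genes. In bulk RNA more cells of a type and more RNA per cell cannot be told apart, and the part of these cells and of the pluripotent state in the results was not tested.

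Between the media the 9 genes were tested, with the 3 shRNAs standing in for replicates. In 5iLA H7 all 9 were below t2iGo H1 and 8 of the 9 fell by the test, with a median of -1.55 on the log2 scale against -0.31 for all genes. Of all genes tested, 40.1% fell and 14.9% rose. Mean levels were 1.88 ± 1.63 RPKM in 5iLA H7 and 19.6 ± 4.05 RPKM in t2iGo H1 for TAGLN (SD, n = 3 libraries each). ACTA2 averaged 0.789 ± 0.662 RPKM in 5iLA H7 and 7.25 ± 3.44 RPKM in t2iGo H1. For CYR61 the means were 1.92 ± 0.750 RPKM in 5iLA H7 and 9.76 ± 3.95 RPKM in t2iGo H1. The ranges of the 3 libraries per culture did not overlap for 8 of the 9 genes, TPM1 being the exception, and 43.1% of all genes likewise had every 5iLA H7 library below every t2iGo H1 library. TAGLN fell by 2.96 ± 0.27 (SE) on the log2 scale (limma adjusted p = 4.97e-06), ACTA2 by 2.21 (limma adjusted p = 0.000142) and CYR61 by 1.84 (limma adjusted p = 0.000163). CNN1, CTGF, CALD1, MYL9 and TPM2 fell by 1.65, 1.55, 1.40, 1.17 and 0.84. TPM1 was 61.1 ± 6.36 RPKM in 5iLA H7 and 93.5 ± 23.5 RPKM in t2iGo H1, and its difference of -0.58 missed the threshold (limma adjusted p = 0.0962). After median-ratio scaling, which brings the median of all genes to 0.03, all 9 genes stayed below 0 and 6 passed, MYL9 at -0.82 (limma adjusted p = 0.0501) and TPM2 at -0.41 (limma adjusted p = 0.0966) no longer doing so. H7 in 5iLA and H1 in t2iGo differ in line and medium, which cannot be told apart.

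In t2iGo H1, 7 of the 9 genes fell relative to primed H1 as the values were deposited, against 63% of all genes (8.77% rose), so the count by itself is close to the background. The median of the 9 was -1.28 and that of all genes -0.82. MYL9 averaged 7.31 ± 0.794 RPKM in t2iGo H1 and 62.0 ± 41.4 RPKM in primed H1 (SD, n = 3 libraries each), a difference of -2.72 ± 0.29 (SE; limma adjusted p = 6.11e-06). TPM2 averaged 18.8 ± 2.10 RPKM in t2iGo H1 and 96.7 ± 32.3 RPKM in primed H1, with a difference of -2.24 (limma adjusted p = 2.44e-06). CTGF averaged 9.11 ± 2.88 RPKM in t2iGo H1 and 42.8 ± 8.45 RPKM in primed H1, and CYR61 9.76 ± 3.95 RPKM in t2iGo H1 and 38.7 ± 8.19 RPKM in primed H1. The differences were -2.14 for CTGF and -1.93 for CYR61 (limma adjusted p = 0.000117 and 4.85e-05). MYL9, TPM2, CTGF and CYR61 fell under each of 3 other scalings as well, by less. After rescaling without short RNAs, where the median of all genes was 0.14, the differences were -1.61 for MYL9, -1.10 for TPM2, -1.03 for CTGF and -0.81 for CYR61 (limma adjusted p = 0.0399 for CYR61). ACTA2, at 7.25 ± 3.44 RPKM in t2iGo H1 and 5.17 ± 2.39 RPKM in primed H1, and CALD1, at 42.6 ± 15.4 RPKM in t2iGo H1 and 42.3 ± 3.66 RPKM in primed H1, did not pass (0.43 and -0.04; limma adjusted p = 0.238 and 0.869). Under median-ratio scaling, which brings the median of all genes to -0.04, both were higher in t2iGo H1 (ACTA2 1.17, CALD1 0.87; limma adjusted p = 0.0218 and 0.0065), and TAGLN, CNN1 and TPM1, which fell as deposited by 1.28, 1.17 and 0.99, no longer passed. Of all calls 87.8% were lower as deposited and 53.3% under that scaling. The shift of the short RNA share given above runs along this comparison, and a separate preparation of the primed H1 libraries cannot be told apart from the medium.

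**Figure D4:**
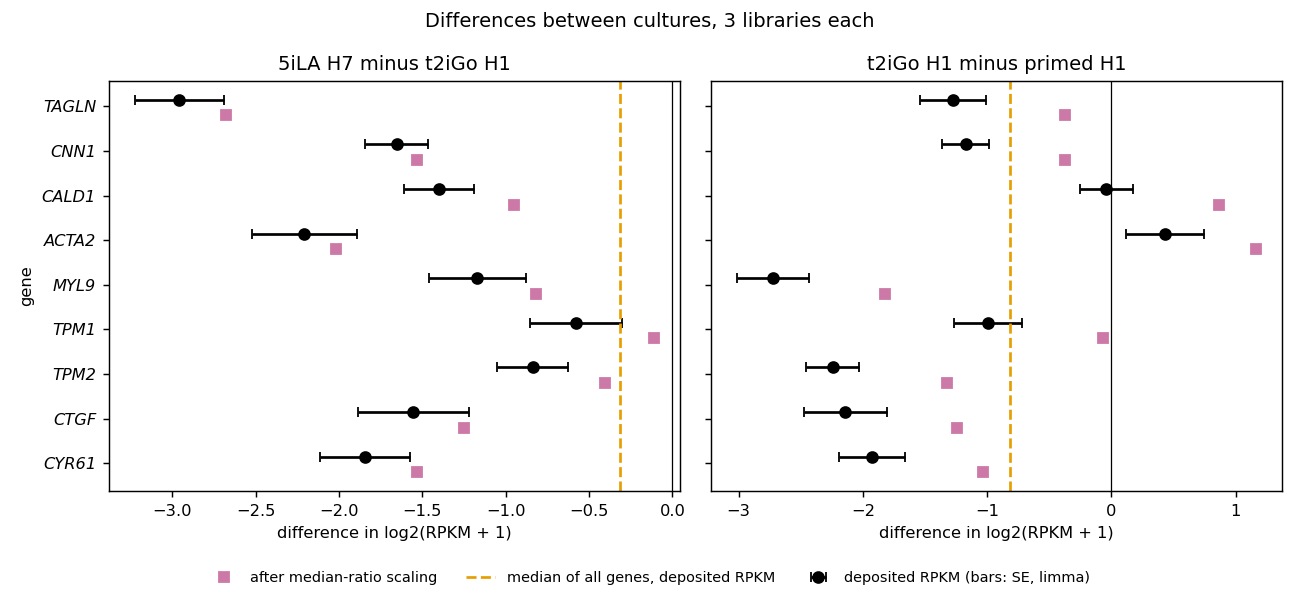
Difference in log2(RPKM + 1) of the 9 genes between 5iLA H7 and t2iGo H1 (left) and between t2iGo H1 and primed H1 (right), over 3 libraries per culture; black points with SE bars are from the deposited RPKM, pink squares from median-ratio scaled RPKM, and the dashed line is the median of all genes (-0.31 and -0.82). All 9 black points are below 0 on the left, while on the right ACTA2 is above 0 and CALD1 crosses it with the scaling.

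The lists of related genes split between these comparisons. In 5iLA H7 relative to t2iGo H1, 13 of 18 YAP and TEAD targets fell and 1 rose, with a median of -1.22, and 11 to 12 fell under the 3 other scalings, against 40.1% of all genes as deposited and 27% to 34.4% under the other scalings. Among them AXL, a receptor tyrosine kinase, was 0.344 RPKM with uCCNE1, 0.323 with pCCNE1 and 0.171 with control shRNA in 5iLA H7, against 8.43 with uCCNE1, 7.80 with pCCNE1 and 6.30 with control shRNA in t2iGo H1. YAP1 itself was 7.08 to 7.78 RPKM in 5iLA H7, against 22.2 to 30.2 RPKM in t2iGo H1, and TEAD1 was 2.04 to 2.24 RPKM in 5iLA H7, against 11.95 to 13.8 RPKM in t2iGo H1. Both fell (limma adjusted p = 3.09e-05 for YAP1 and 2.12e-06 for TEAD1), whereas TEAD4 rose by 1.995 on the log2 scale (limma adjusted p = 0.000176). Of the SRF and MRTF cytoskeletal targets 14 of 26 fell and 4 rose in 5iLA H7 relative to t2iGo H1, against 40.1% and 14.9% of all genes. Under the other scalings 12 to 13 of the 26 fell and 5 to 6 rose, against 27% to 34.4% and 23.2% to 29% of all genes. As deposited, 9 of the 10 tested fibroblast genes fell. Some genes in these counts passed the filter only through their t2iGo H1 values, so their fall was set in advance. Among them were LUM and PDGFRA of the fibroblast list and TGFB2 of the YAP and TEAD targets. In t2iGo H1 relative to primed H1, 19 of 26 SRF and MRTF cytoskeletal targets fell and 1 rose as deposited, against 63% and 8.77% of all genes. ACTC1 and ACTA1, among those that fell, passed the filter only through their primed H1 values, so their fall was set in advance. Under the other scalings 12 to 13 fell and 7 to 9 rose, against 30.1% to 35.8% of all genes that fell and 31.4% to 38.5% that rose. SRF, at 2.83 to 4.58 RPKM in t2iGo H1 against 17.98 to 25.2 RPKM in primed H1, and ZYX, a zyxin of focal adhesions, at 1.499 to 3.96 RPKM in t2iGo H1 against 34.6 to 52.7 RPKM in primed H1, were among the genes that fell. The YAP and TEAD targets in that comparison counted 8 that fell and 7 that rose as deposited. None fell and 9 to 11 of 18 rose under the other scalings, set against the same shares of all genes. TGFB2 was among the 7 that rose as deposited, where its place was again set by the filter. ARHGEF17, lower in t2iGo H1 than in primed H1, passed the filter only through its primed H1 values, so its direction was set in advance. ANKRD1, a YAP target of the nucleus and the sarcomere, was 5.55 to 13.0 RPKM in t2iGo H1, against 0.609 to 2.52 RPKM in primed H1.

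The untreated H7 pair put the genes in another order. As single libraries of a separate table, these have no test, and levels set against the shRNA libraries cross 2 tables that were normalised separately. TAGLN was 81.0 RPKM in untreated 5iLA H7 and 15.04 RPKM in untreated primed H7, and ACTA2 21.2 RPKM in untreated 5iLA H7 and 0.921 RPKM in untreated primed H7. CNN1 was 8.97 RPKM in untreated 5iLA H7 and 2.48 in untreated primed H7, and CALD1 77.1 RPKM in untreated 5iLA H7 and 29.3 in untreated primed H7. Contractile genes were thus higher in the 5iLA library, ACTA2 by the widest margin at 23.0 times. CTGF was 23.4 RPKM in untreated 5iLA H7 and 8.28 in untreated primed H7, and CYR61 14.2 RPKM in untreated 5iLA H7 and 3.86 in untreated primed H7. MYL9 (28.7 RPKM in untreated 5iLA H7 and 25.1 in untreated primed H7) and TPM1 (201 RPKM in untreated 5iLA H7 and 149 in untreated primed H7) differed by less than 1 log2 unit, and the sign turned for MYL9 under 3 other scalings and for TPM1 under quantile normalization. TPM2 was the exception in sign, at 24.4 RPKM in untreated 5iLA H7 and 36.8 in untreated primed H7. In all, 6 of the 9 genes were at least 1 log2 unit higher in 5iLA, against 11% of the 11015 genes tested, and the median difference was 1.39, against 0.23 for all genes. All 17 tested YAP and TEAD targets were also higher in untreated 5iLA H7, as were 66.1% of all genes. Of the 17, 8 were higher by at least 1 log2 unit, and 14 to 16 were higher under the other scalings. The filter here was a mean of at least 1 RPKM over these 2 libraries. Genes below 1 RPKM in untreated primed H7 passed it only through the 5iLA value, so their direction was set in advance. Among them were ACTA2 of the 9 genes and ANKRD1, MYOF, F3 and TGFB2 of the YAP and TEAD targets.

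Untreated 5iLA H7 and 5iLA H7 with control shRNA therefore stood far apart in these genes. TAGLN was 0.862 RPKM with control shRNA and 81.0 RPKM untreated, and CYR61 was 1.41 RPKM with control shRNA and 14.2 RPKM untreated. The 9 genes together held 0.0398% of summed RPKM in 5iLA H7 with control shRNA and 0.204% in untreated 5iLA H7. The state markers differed between the same libraries: naive genes summed to 833 RPKM with control shRNA and 158 RPKM untreated, primed genes to 23.9 RPKM with control shRNA and 222 RPKM untreated, and fibroblast genes to 4.41 RPKM with control shRNA and 184 RPKM untreated. VIM made up most of the untreated fibroblast sum, at 120 RPKM, and was 0.507 RPKM with control shRNA. The part of all these markers in the difference was not tested. By level, TPM1 was the highest of the 9 genes in all 11 libraries, and ACTA2 or CNN1 was the lowest in each.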

How the data were processed

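Per the labels' protocols, RNA was extracted with the RNeasy Mini kit and libraries came from TruSeq RNA kits. The authors deposited RPKM once per gene, in a table of 9 shRNA libraries and a table of 2 untreated libraries. TopHat2 2.3.0, Cufflinks 1.2.1 and hg19 are named per the submitters' processing notes. Their settings and the use of strand in counting were not stated in what was read, and gene-level RPKM cannot separate splice forms or near-identical copies. The 9 genes, the 14 lists and the tests were chosen with earlier results of these data known. The summary of 1 list is not reported here.

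Values were analysed as log2(RPKM + 1), a scale that understates changes of low genes. Genes averaging 1 RPKM or more (12116) entered limma 3.58.1 (R 4.3.3; trend, empirical Bayes), in a model of culture plus shRNA fitted to the 9 shRNA libraries (4 residual degrees of freedom), with Benjamini-Hochberg adjustment over all genes at 0.05. The fit was run on simulated data with the same spread for every gene and no library-wide shift. These libraries do have such shifts, so that run checks the calculation only. P-values measure only the spread between these libraries. For the 9 genes no p is given between shRNAs. Named list genes are up to 4 per list and comparison with the widest difference; single markers of the smooth muscle, fibroblast and pluripotent lists were named after their values were seen. Likeness was Pearson r over culture-centred values among genes spanning at least 1 log2 unit. Depth was estimated from the step of low RPKM values and RefSeq-matched GENCODE lengths (21905 of 23287 genes); 43.0% to 48.3% of low values lay within 0.1 of a whole read, so read numbers are approximate, and intervals cover counting error only. Alternatives were other pseudocounts, filters, scalings and library sets.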

Additional observations from a re-analysis of the deposited data

Results flagged for a closer look

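Some of the 9 genes moved in opposite directions in 2 cultures, by at least 0.5 log2 units on each side, under the same shRNA comparison. Each culture has 1 library per shRNA, so none of these differences was tested. For pCCNE1 minus control, CTGF was 0.85 in t2iGo H1 and -1.39 in 5iLA H7, a gap of 2.24 log2 units. CYR61 was 1.06 in t2iGo H1 and -0.52 in primed H1, a gap of 1.58, and TPM1 was 0.69 in t2iGo H1 and -0.84 in primed H1, a gap of 1.53. For uCCNE1 minus control, ACTA2 was 0.94 in 5iLA H7 and -1.21 in primed H1, a gap of 2.15, where the 5iLA control value rests on about 1 estimated read. CTGF was 0.71 in t2iGo H1 and -0.69 in 5iLA H7, a gap of 1.40. For uCCNE1 minus pCCNE1, CYR61 was 0.58 in primed H1 and -0.57 in t2iGo H1, a gap of 1.15.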

How the results depend on the processing

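The labels carry no replicate numbers, so libraries could be matched only by culture or by shRNA. Culture was a term of the fit, so shRNAs were compared within cultures. Without that term the counts of calls between shRNAs were also 0. Counts of calls between shRNAs, 0 as reported, depended on the cultures fitted. Without the t2iGo H1 libraries they were 40 for uCCNE1 minus pCCNE1, 123 for uCCNE1 minus control and 94 for pCCNE1 minus control. Without the primed H1 libraries they were 4 for uCCNE1 minus control and 6 for pCCNE1 minus control. With no filter on low values they were 1 for each CCNE1 shRNA against control, and with the 6 compared libraries alone 38 for uCCNE1 minus control. The pCCNE1 minus control median of the 9 genes, 0.05, was -0.21 without t2iGo H1 and 0.40 without primed H1. It was 0.27 after quantile normalization, 0.22 after median-ratio scaling and 0.28 after rescaling without short RNAs. The uCCNE1 minus control median was 0.57 after rescaling without short RNAs. In t2iGo H1 minus primed H1 the median of the 9 genes, -1.28, was -0.38 after quantile normalization, -0.38 after median-ratio scaling and -0.19 after rescaling without short RNAs. CALD1, at -0.04, became 0.91, 0.87 and 1.09 under those 3 scalings, and TPM1, at -0.99, became 0.047 under quantile normalization and 0.17 without short RNAs. Without the uCCNE1 or the control libraries TPM1 no longer passed there, and without the control libraries ACTA2 passed, at 0.86. In 5iLA H7 minus t2iGo H1 the median, -1.55, was -1.92 with a pseudocount of 0.1, -1.24 after quantile normalization, -1.25 after median-ratio scaling and -1.18 without the pCCNE1 libraries. In that comparison TPM2 did not pass without the pCCNE1 libraries, nor MYL9 without the control libraries. The untreated median, 1.39, was 1.09 after quantile normalization, 1.19 after median-ratio scaling and 1.11 without short RNAs. Of 432 alternative values for single genes, 405 kept their side of the threshold or, between shRNAs, moved by less than the spread over cultures. The causes were not tested. Depth limits ACTA2 and CNN1 in 5iLA H7, where single reads decide the control values.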
